A study of Mus musculus with 12 samples.

Results

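The Gata genes encode 6 zinc finger transcription factors, Gata1 to Gata6, that bind DNA words with GATA at their core. DNA methylation at these genes was compared between Tet knockout and wild-type mouse embryonic stem cells (ESCs). A methylation value was taken as one of a Gata gene when the annotation deposited with it named that gene as the nearest start site, at any distance. In the comparison of double knockout cells this annotation was out of row order, so there a CpG was taken when it lay in the gene or within 50 kb of it. By this rule 30 of 31671 listed values belonged to the 6 genes, out of 22238 protein-coding genes in the annotation, and they fell on 21 CpG positions. The rule used gene names and positions and no methylation value.

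Methylation was read by reduced representation bisulfite sequencing (RRBS), which cuts DNA with the enzyme MspI at CCGG, keeps short fragments and reads the cytosines in them after bisulfite conversion. The 12 clones were 2 TKO (Tet1, Tet2 and Tet3 knocked out), 2 DKO (Tet1 and Tet2), 2 Tet2-/-, 3 Tet1-/- and 3 WT clones. All came from a single 129/SVj-derived parental ESC line with a GFP reporter behind Oct4 and were grown undifferentiated with LIF. The knockout clones were isolated after CRISPR editing of the Tet genes, and the WT clones carry no such edit. Titles and genotype fields disagree about which Tet genes are lost in 3 clones (DKO replicate 1, TKO replicates 1 and 2), and groups follow the titles. Each value is the authors' difference in percent methylation between the clones of 2 genotypes, given as 1 value per CpG in percentage points, with positive values where the knockout was more methylated than WT (in the direct comparison, where Tet2-/- was more methylated than Tet1-/-). A CpG is listed only where coverage was at least 10 reads, the q-value was under 0.05 and the difference was at least 25 points. No level, depth or q-value stands beside a difference and no clone has a value of its own, so no SD can be given, and a CpG that is not listed may be unchanged, under the minimum or unread. The lists hold no expression, so cell type markers could not be read from them, and 5-hydroxymethylcytosine is not separated from methylcytosine.

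Tet proteins oxidise methylcytosine, a step in its removal, and ESCs keep the Gata genes largely silent. Gata1, Gata2 and Gata3 are best known from blood: Gata1 drives red cell and megakaryocyte differentiation, Gata2 maintains blood stem and progenitor cells, and Gata3 directs T cell and in particular T helper development, with roles in trophoblast and inner ear. Gata4, Gata5 and Gata6 act in endoderm, heart and gut, and forced Gata4 or Gata6 turns mouse ESCs toward primitive endoderm.

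Among the comparisons with WT, 25 of the values lay at Gata genes, 20 of them higher in the knockout and 5 lower. Most listed CpGs of any gene were higher too: 58.6% in TKO, 64.8% in DKO, 77.7% in Tet2-/- and 65.6% in Tet1-/- cells. By the rule, Gata2 was the member with a listed CpG in each of the 4 comparisons with WT, all 7 of its values being higher in the knockout. These values lay on 5 positions. TKO, DKO and Tet1-/- shared a CpG, and the CpG of Tet2-/- cells was a different one. With CpGs within 50 kb counted, Gata4 also had a listed CpG in each of the 4 comparisons, in Tet1-/- cells inside Fdft1. Against WT, Gata5 and Gata6 had values in Tet2-/- cells and in no other genotype by the rule, and the CpGs of Gata3 and Gata4 went in both directions. No listed CpG lay closer than 669 bp to the reference start site of a Gata gene, and 9 of the 30 values lay within 2000 bp of one. Some CpGs are counted in several comparisons among these 9. The share of all listed values that close to a start site was not computed, so these distances set nothing apart from other genes.

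The sequences below (forward strand of mm9, which is NCBIM37) surround the listed CpGs that the results turn on, with each listed CpG in capitals. The first is shown because its CpG was listed in 3 comparisons with WT, and its longest stretch of capitals is a composite of an E-box (CATCTG) and a GATA word (AGATAA) separated by 8 bases.
Gata2 intron 4, chr6:88152993-88153208: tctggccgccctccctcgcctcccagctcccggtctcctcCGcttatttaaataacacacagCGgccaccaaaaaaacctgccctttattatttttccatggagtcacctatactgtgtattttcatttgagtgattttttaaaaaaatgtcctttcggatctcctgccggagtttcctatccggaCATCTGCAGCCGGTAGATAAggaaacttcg
The next show the other Gata2 CpGs, which lie upstream of the reference start site.
Gata2 distal upstream, first CpG, chr6:88102063-88102144: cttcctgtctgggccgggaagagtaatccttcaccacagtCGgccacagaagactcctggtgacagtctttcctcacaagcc
Gata2 distal upstream, next CpG, chr6:88103085-88103166: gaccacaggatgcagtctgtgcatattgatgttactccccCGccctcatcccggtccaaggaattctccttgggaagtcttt
Gata2 upstream island, chr6:88146331-88146412: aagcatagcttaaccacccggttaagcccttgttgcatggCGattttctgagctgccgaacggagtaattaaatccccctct

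At Gata3 the sequences shown are those of the CpG with the largest Tet2-/- difference and its neighbour in the same intron. The CpG that was lower in TKO and DKO cells and a group of CpGs named for an adjacent gene, 9230102O04Rik, follow.
Gata3 intron 2, first CpG, chr2:9798243-9798324: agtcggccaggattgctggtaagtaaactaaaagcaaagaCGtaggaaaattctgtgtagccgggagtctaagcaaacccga
Gata3 intron 2, next CpG, chr2:9798584-9798665: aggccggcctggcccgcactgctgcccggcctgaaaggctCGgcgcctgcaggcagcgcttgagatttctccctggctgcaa
Gata3 upstream, chr2:9802093-9802174: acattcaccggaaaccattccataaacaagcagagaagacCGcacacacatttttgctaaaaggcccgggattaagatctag
Gata3 distal upstream group, chr2:9816625-9816855: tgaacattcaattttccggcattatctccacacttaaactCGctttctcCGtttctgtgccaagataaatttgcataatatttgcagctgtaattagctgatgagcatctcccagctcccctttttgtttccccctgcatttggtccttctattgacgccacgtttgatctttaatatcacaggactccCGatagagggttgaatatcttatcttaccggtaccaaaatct

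At Gata4 and Gata5 the sequences shown are those of the exonic CpGs, the intronic CpG shared by TKO and Tet2-/- cells, and the repeat with the most negative differences.
Gata4 exon 2, chr14:63860421-63860450: cagagcggctccagCGaagaatgacaaaga
Gata4 intron 1, chr14:63863135-63863216: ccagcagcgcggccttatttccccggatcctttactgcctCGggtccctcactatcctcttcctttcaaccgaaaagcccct
Gata4 B2 element, chr14:63907373-63907454: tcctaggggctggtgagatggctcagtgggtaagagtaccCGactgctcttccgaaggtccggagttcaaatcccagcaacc
Gata5 exon 1, chr2:180068695-180068776: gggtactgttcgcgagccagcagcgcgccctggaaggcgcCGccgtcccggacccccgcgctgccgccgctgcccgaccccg
The CpGs of Gata6 are given by position only.

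Read by comparison, TKO minus WT had 7 Gata values, 6 higher and 1 lower, where 58.6% of all listed CpGs were higher. DKO minus WT had 6, of which 4 were higher and 2 lower, against 64.8% higher among all listed CpGs. Tet2-/- minus WT had 11, of which 9 were higher and 2 lower, against 77.7% higher among all. Tet1-/- minus WT had a single Gata value, which was higher, as were 65.6% of all its listed CpGs. With so few CpGs, some of them a few bases apart, these splits are given as counts and set nothing apart from the other listed CpGs.

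**Figure D1:**
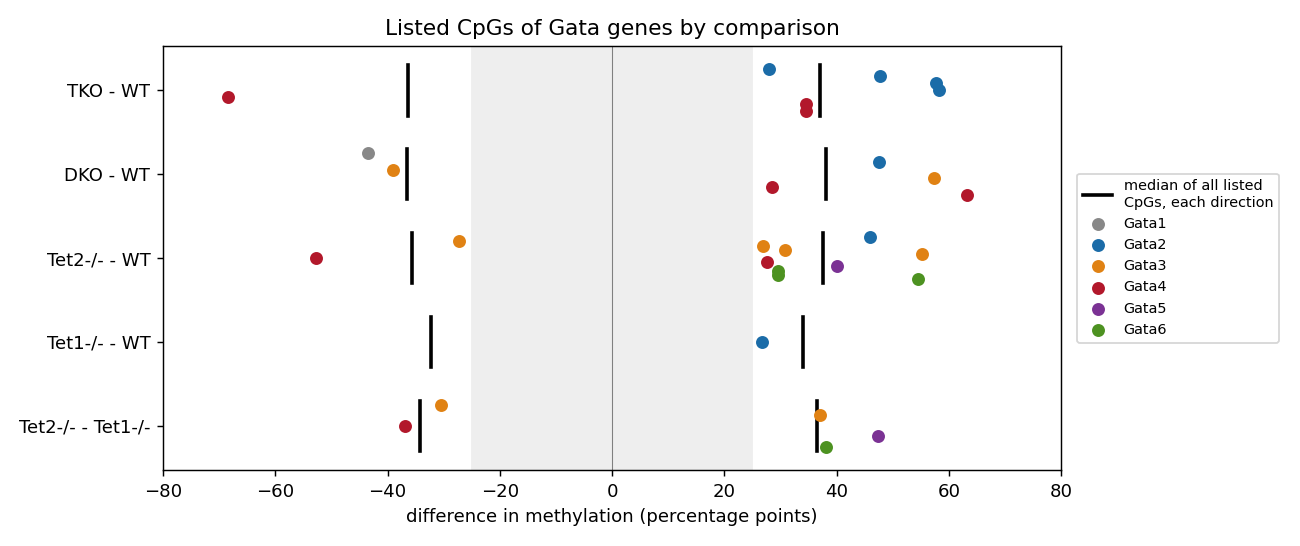
Each point is a listed CpG of a Gata gene, coloured by gene, at its difference in methylation (percentage points, x axis) in the comparison named on the y axis; black bars are the medians of all listed CpGs in each direction, and the grey band holds the differences under 25 points that are not listed. The Gata2 points lie right of the band in all 4 comparisons with WT, and the leftmost point is the Gata4 repeat CpG at -68.4 points in TKO.

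Counted by gene, 2 of the 6 (Gata2 and Gata4) were named for a CpG in TKO minus WT, where 18.6% of protein-coding genes were. In Tet2-/- minus WT 5 of 6 were named, all but Gata1, against 15.9% of genes, and in Tet1-/- minus WT 1 of 6 (Gata2), against 14.1%. On an equal footing, with a CpG in the gene or within 50 kb of it, the counts were 3 of 6 in TKO (42.4% of all genes), 4 of 6 in DKO (39.0%), 5 of 6 in Tet2-/- (38.1%) and 2 of 6 in Tet1-/- (34.7%). How many CpGs RRBS could read at each gene was not matched in these shares, and it differed between the members, as given further on.

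Gata1 had 1 value, at chrX:7514575 in DKO cells. The difference was -43.4 points, so that methylation was lower in DKO and at least 43.4% in WT clones, since a level cannot fall under 0. This CpG lies 21811 bp beyond the end of Gata1 (chrX:7536386-7555197, minus strand) and inside Hdac6, a cytoplasmic histone deacetylase gene, and is a Gata1 CpG by distance only. No CpG was named for Gata1 in the other comparisons, and the reference holds 1 CpG in MspI fragments of 40 to 220 bp within 2000 bp of its start site.

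Gata2 (chr6:88143885-88157024, plus strand) has its reference start site at 88148658 and an upstream start at 88143885. In intron 4 of 5, the CpG at 88153033, 4375 bp downstream of the reference start, had 47.7 points in TKO, 47.6 points in DKO and 26.7 points in Tet1-/- cells relative to WT. The TKO and DKO values at this CpG were nearly equal, and the Tet1-/- value was the smallest of the 3 and close to the authors' minimum. It was not listed for Tet2-/-. A further CpG, 22 bp on at 88153055, was listed in TKO with 27.9 points.

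These differences limit the WT level at 88153033 to at most 52.3% from the TKO value, 52.4% from the DKO value and 73.3% from the Tet1-/- value. Among all listed CpGs of its comparison, ranked by absolute difference, the CpG stood at percentile 75.2 in TKO, 73.3 in DKO and 12.4 in Tet1-/-. Gata2 transcription in blood stem cells is known to depend on an intronic enhancer with an E-box next to a GATA word. The composite printed above, CATCTGCAGCCGGTAGATAA at chr6:88153179-88153198, occurred once on the forward strand of Gata2 and not on the reverse strand, 146 bp from the CpG at 88153033 and 124 bp from that at 88153055. Windows of 401 bases around a listed CpG held such a composite (CATCTG, 8 bases of any kind, AGATAA, on either strand) in 5 of 20896 cases on assembled chromosomes (0.0239%). The Gata windows with it were 2 of 21, and both hold this same site, so they count once. They are also among the 5. The searched pattern is the spelling of the Gata2 site itself, so its presence there was given in advance. These shares therefore test neither rarity nor enrichment. The match describes these letters and says nothing of binding in ESCs.

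The other Gata2 CpGs were each listed for 1 genotype. In TKO cells, CpGs at 88102103 and 88103125, which are 46555 and 45533 bp upstream of the reference start and outside the gene, had 58.1 and 57.7 points. These were the largest Gata2 values, at percentiles 88.6 and 88.1 of the TKO list, and limit the WT levels there to at most 41.9% and 42.3%. In Tet2-/- cells the CpG at 88146371, in a CpG island 2287 bp upstream of the reference start and between it and the upstream start, had 45.9 points. WT was therefore at most 54.1% methylated at that CpG. The CpG listed for Tet2-/- cells was thus not among those listed for the other 3 genotypes, and Gata2 had no entry in the direct comparison of Tet2-/- with Tet1-/- cells.

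**Figure D2:**
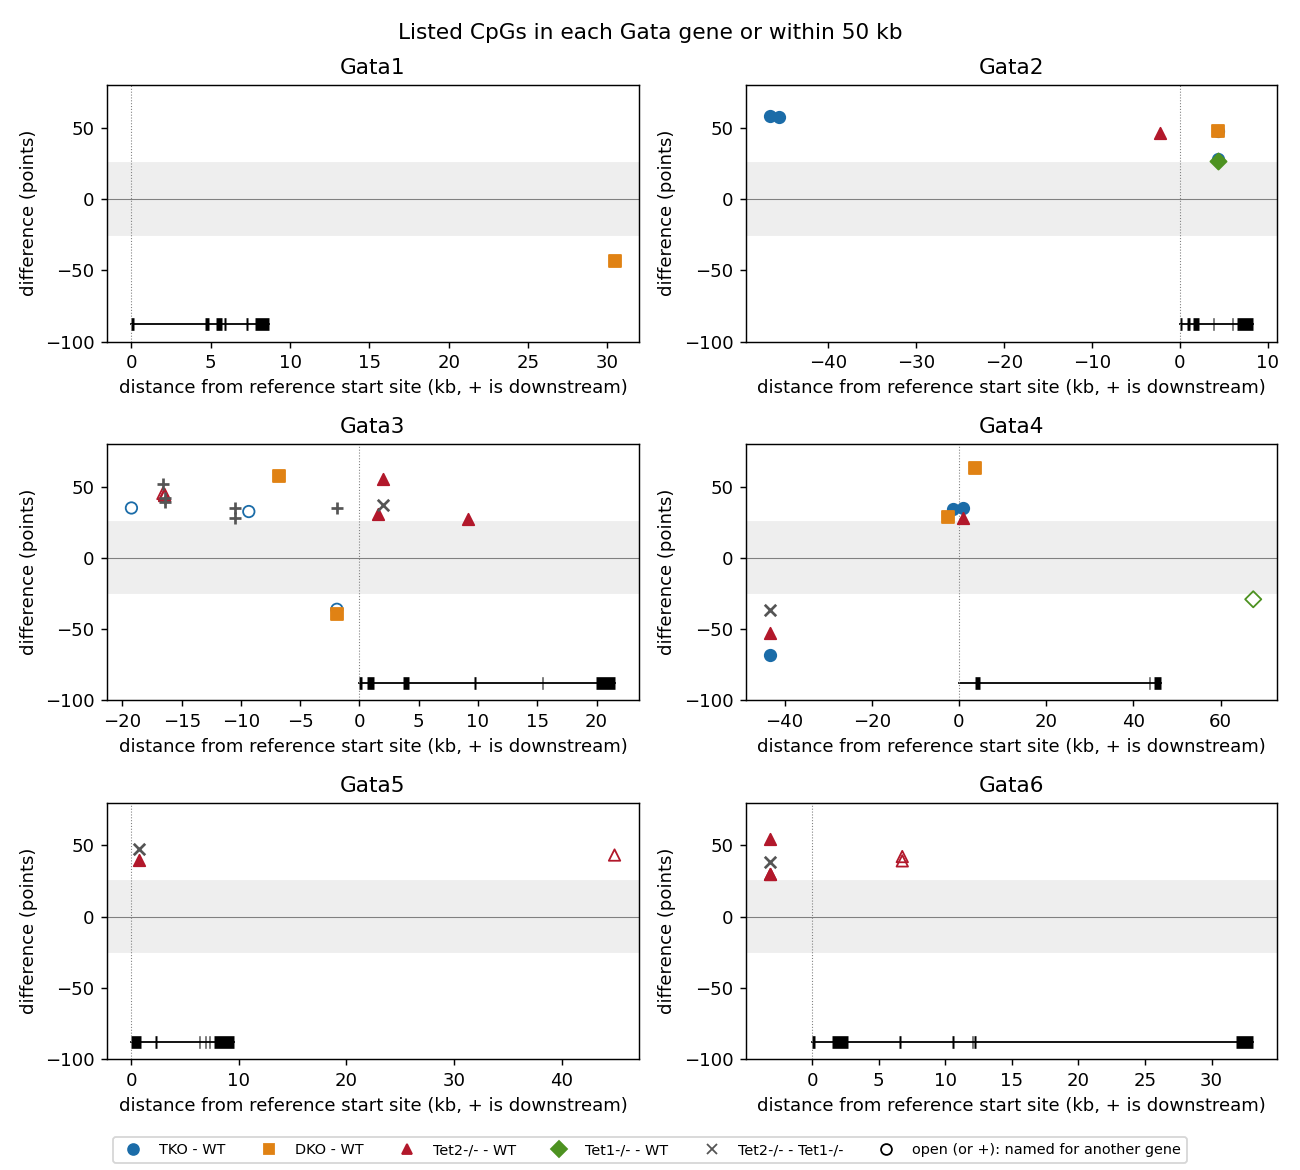
For each gene, the difference in methylation (percentage points, y axis) of every listed CpG in the gene or within 50 kb is plotted against its distance from the reference start site (kb, x axis, downstream positive), with symbols by comparison, open symbols or plus signs for CpGs named for another gene, black blocks for exons of the reference transcript and a grey band for unlisted differences. The Gata2 CpGs of TKO, DKO and Tet1-/- meet in intron 4, the Gata3 CpGs spread on both sides of the start site, and the Gata4 repeat CpG lies 43305 bp upstream of the start.

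Gata3 (chr2:9778705-9811661, minus strand, reference start 9800227) was named in Tet2-/- cells for 4 CpGs. In intron 2 of 5 the CpG at 9798283, 1944 bp downstream of the start, had 55.3 points, and the CpG at 9798624, 341 bp away, had 30.8 points. In intron 3 the CpG at 9791045 had 26.9 points, just over the minimum. The other, at 9683268, is intergenic at 116959 bp from the start and had -27.3 points, so it is linked to Gata3 by name only. The 3 CpGs inside Gata3 were thus all higher in Tet2-/- than in WT cells, as were 77.7% of all listed Tet2-/- CpGs.

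In DKO cells the CpGs taken by position lay upstream of the Gata3 start. The CpG at 9802133, 1906 bp upstream, had -39.1 points. That at 9807001, 6774 bp upstream and inside 9230102O04Rik, had 57.3 points. The annotation used here counts 9230102O04Rik as protein-coding, while the deposited one names a non-coding transcript for it. In TKO cells the CpG at 9802133 had -36.1 points, where it was named as a promoter CpG of 4930412O13Rik, a non-coding gene beside Gata3, and so is no Gata3 value by the rule. This CpG was thus lower than WT in both genotypes, while Tet2-/- minus Tet1-/- was 34.8 points at the same position and neither single knockout was listed there against WT. The WT level it implies is at least 39.1%.

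The neighbourhood upstream of Gata3 held further CpGs named for 9230102O04Rik. In Tet2-/- cells those at 9816665, 9816674 and 9816814, 16438 to 16587 bp upstream of the Gata3 start, had 44.5, 43.6 and 45.1 points. The direct comparison gave the reverse-strand cytosines of these same CpGs 42.1, 39.2 and 51.5 points, so Tet2-/- was higher than Tet1-/- as well. They lie in a single MspI fragment of 201 bp and share fragments, so they are no independent observations. In TKO cells CpGs at 9809565 and 9819468 had 32.4 and 34.9 points. Within 50 kb of Gata3, all 6 Tet2-/- CpGs were higher than WT, as were 77.7% of all listed Tet2-/- CpGs. Their median was 44.1 points, beside 37.6 points for all higher CpGs of that list. The 6 include the CpGs of the single 201 bp fragment. The lower CpG named for Gata3, at 9683268 with -27.3 points, lies outside this window.

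Gata4 (chr14:63817759-63890529, minus strand, reference start 63864108), an endoderm and heart regulator, had values of both signs. In intron 1 the CpG at 63863175, 933 bp downstream of the start, had 34.6 points in TKO and 27.6 points in Tet2-/- cells. A CpG island CpG at 63865503, 1395 bp upstream, had 34.6 points in TKO cells. In DKO cells different CpGs were listed: 63860435, in the untranslated part of exon 2 of 7 and 3673 bp downstream of the start, had 63.2 points, and 63866575, 2467 bp upstream, had 28.4 points. All 5 of these values around the Gata4 start, from 2467 bp upstream to 3673 bp downstream, were higher in the knockout than in WT. Most listed CpGs of these comparisons had that direction.

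The CpG at 63907413 went the other way. It lies in a B2 element, a short interspersed repeat, 43305 bp upstream of the Gata4 start and outside the gene, and had -68.4 points in TKO and -52.7 points in Tet2-/- cells. WT clones were therefore at least 68.4% methylated there. Tet2-/- minus Tet1-/- was -37.0 points, so Tet2-/- cells were also lower than Tet1-/- cells, which were not listed against WT at this CpG. The B2 copies of the genome resemble each other, and how uniquely reads map to this one is not given in the sources used here. In Tet1-/- cells the single listed CpG near Gata4 was at 63796624, with -29.1 points, in the neighbouring gene Fdft1, which encodes squalene synthase.

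Gata5 (chr2:180059838-180069404, minus strand, start 180069404), a heart and gut factor, had 1 CpG, in the coding part of exon 1 of 6 at 180068735. The list puts it 649 bp downstream of the start, and the annotation used here 669 bp. It had 40.02 points in Tet2-/- minus WT and 47.4 points in Tet2-/- minus Tet1-/-, so Tet2-/- cells were higher than both. It also overlaps Gm14318, so that the methylation cannot be assigned to 1 of these genes. A further Tet2-/- CpG within 50 kb, at 180024471 with 43.2 points, is in the first intron of Rbbp8nl.

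Gata6 (chr18:11052508-11085633, plus strand), an activator of primitive endoderm, had 3 CpGs in Tet2-/- cells, all upstream of its start with gaps of 2 and 8 bp. The CpG at 11049358, 3150 bp upstream, had 54.5 points, and those at 11049360 and 11049368 had 29.5 points each. All were annotated to the transcription end of 1010001N08Rik, a non-coding gene that neighbours Gata6. The direct comparison gave 11049358 a value of 38.1 points, from its reverse-strand cytosine. Inside Gata6, 2 CpGs of an intron 3 island at 11059279 and 11059281 had 42.1 and 39.1 points in Tet2-/- cells, although the nearest start site named for them is that of 1010001N08Rik. All 5 Tet2-/- CpGs at Gata6 were thus higher than WT, in 2 groups of adjacent CpGs, where 77.7% of all listed Tet2-/- CpGs were higher.

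The direct comparison of Tet2-/- with Tet1-/- cells, which tests that difference itself and has no WT clones in it, held 5 Gata values, 3 higher in Tet2-/- and 2 lower, where 67.0% of all its listed CpGs were higher. They were the Gata3 intron 2 CpG (37.1 points), the Gata5 exon 1 CpG (47.4 points) and the Gata6 upstream CpG (38.1 points), and, lower, the Gata4 repeat CpG (-37.0 points) and the distal CpG named for Gata3 (-30.5 points). Each of the 5 was also listed for Tet2-/- against WT, in the same direction, and none for Tet1-/- against WT. The direct comparison and Tet2-/- minus WT share the Tet2-/- clones. How often this held over all CpGs of the direct comparison was not computed, so it sets the Gata genes apart in nothing. Within 50 kb, the Gata3 CpGs at 9802133, 9810689 and 9810696 were in the direct comparison and listed for neither single knockout against WT. By gene, 4 of 6 members were named, against 10.9% of protein-coding genes, and 4 of 6 had a CpG within 50 kb, against 26.8%.

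Across the comparisons with WT, which share the WT clones, 17 of the 21 Gata positions were listed once (81%), 3 in 2 lists (14.3%), 1 in 3 lists (4.76%) and none in all 4. Of all 20921 listed positions, 74.3% were in 1 list, 20.4% in 2, 4.78% in 3 and 0.559% in 4. The position in 3 lists was Gata2 88153033, and those in 2 lists were Gata3 9802133 (lower), Gata4 63863175 (higher) and Gata4 63907413 (lower). With the direct comparison included, 8 Gata positions had more than 1 value. No Gata position was higher in 1 knockout and lower in another against WT. Only the few positions in more than 1 list against WT could differ in this way. How often other genes did was not computed.

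**Figure D3:**
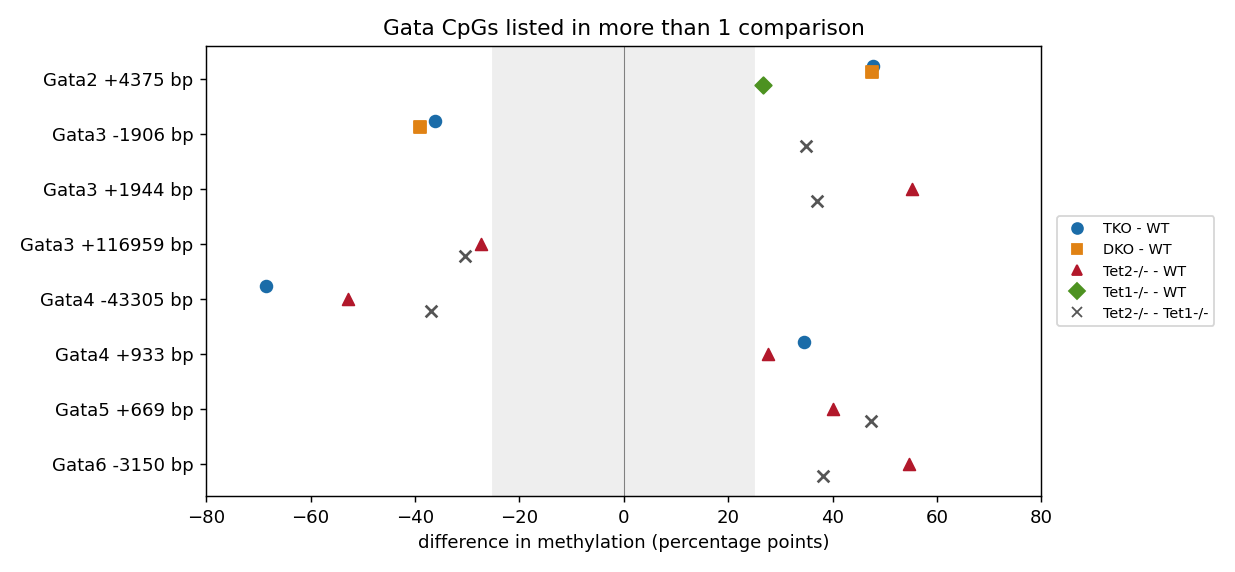
The 8 Gata CpGs with a value in more than 1 comparison are named by gene and distance from the reference start site (y axis), with their differences in methylation (percentage points, x axis) by comparison and a grey band for unlisted differences. At Gata3 -1906 bp the TKO (-36.1 points) and DKO (-39.1 points) symbols lie left of the band and Tet2-/- minus Tet1-/- (34.8 points) right of it; there the TKO and direct values are named for 4930412O13Rik.

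RRBS reads only part of each locus, and the part differed between the genes. In the gene and 50 kb on each side, the reference holds 139 CpGs in MspI fragments of 40 to 220 bp at Gata1, 341 at Gata2, 274 at Gata3, 347 at Gata4, 114 at Gata5 and 234 at Gata6. Listed positions there in the comparisons with WT numbered 1, 5, 10, 6, 2 and 5 in the same order. This gives 0.719 listed positions per 100 such CpGs at Gata1, 1.47 at Gata2, 3.65 at Gata3, 1.73 at Gata4, 1.75 at Gata5 and 2.14 at Gata6, beside 1.37 over the genome. Gata3 had the most and Gata1 the fewest, with adjacent CpGs counted singly. Of the 21 member positions, 20 lay in such a fragment, as did 81.2% of all listed CpGs. The ratios also count listed positions outside such fragments, so they are not rates among the CpGs inside. Inside were 4 of 5 positions at Gata2, 9 of 10 at Gata3, all at the other members and 16973 of 20896 over the genome.

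**Figure D4:**
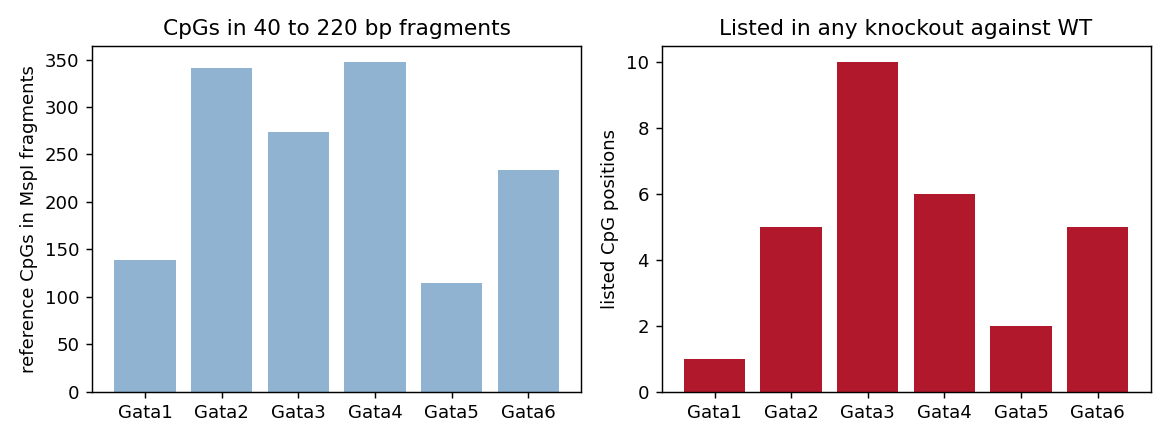
Bars give, per Gata gene with 50 kb on each side, the reference CpGs in MspI fragments of 40 to 220 bp (left) and the positions listed in any knockout against WT (right). Gata4 has the most such CpGs (347) and Gata3 the most listed positions (10), while Gata1 has 139 and 1.

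By annotation, TKO values at Gata genes were 4 intergenic and 3 intronic, where 41.2% and 37.1% of all listed CpGs were. Tet2-/- values were 4 intronic, 3 intergenic, 3 at a transcription end and 1 exonic, where the shares of all listed CpGs were 37.3%, 41.4%, 1.76% and 12.3%. The 3 at a transcription end are the adjacent CpGs upstream of Gata6. None of the Gata values in these lists was annotated as a promoter of a Gata gene. The share of all listed CpGs in the promoter class was not computed, so with so few values this sets nothing apart. A GATA word (AGATAA, or the same with T as its first letter, G as its last or both, either strand) was in the 401 bases around 6 of the 21 Gata positions (28.6%) and around 42.8% of all listed CpGs.

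Genes that work with the Gata factors were read within 2000 bp of a start site, where 8.43% of genes had a higher and 3.05% a lower CpG in at least 1 comparison with WT. Of the 6 Gata genes, 3 had a higher CpG (Gata3, Gata4 and Gata5) and 1 a lower one (Gata3). Of 14 cofactors and complex partners, 5 had a higher CpG (Lmo2, Lyl1, Runx1, Fli1 and Cbfa2t3) and 1 a lower one (Lmo2). Of 9 other genes with a GATA-type zinc finger, 2 had a higher CpG (Rere and Zglp1) and none a lower one. Several members of these lists are developmental genes with CpG islands, and how many CpGs were read at each was not matched.

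Among the cofactors, Cbfa2t3 encodes a corepressor of blood cell complexes. Its CpG at chr8:125201104 had 57.4 points in TKO, 80.6 points in DKO and 28.4 points in Tet1-/- cells. These are the same genotypes and the same lowest genotype as at the Gata2 intron 4 CpG. The adjacent Cbfa2t3 CpG at 125201106 had 29.1 points in DKO cells and was listed for no other genotype against WT. Lmo2 encodes a bridging protein between Gata and E-box factors. Its CpG at chr2:103797946 had 64.3 points in DKO and 36.3 points in Tet1-/- cells, while another at 103811336 had -26.2 points in TKO cells. At Rere, a nuclear receptor coregulator, CpGs at chr4:149780745 and 149780751 had 36.7 and 53.1 points in TKO and 31.0 and 35.1 points in DKO cells.

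Of 25 endoderm genes, 5 had a higher CpG, among them Sox7, Lamc1, Amn and Mixl1, and 1 a lower one (Foxa3). Over all genes these shares were 8.43% and 3.05%. Foxa3, a liver and gut forkhead factor, was lower by both of its TKO CpGs (-44.6 and -45.5 points) and in Tet1-/- cells (-38.2 points). Sox7 had 27.5 points in Tet2-/- and 36.4 points in Tet1-/- cells, and the laminin gene Lamc1 43.3 points in Tet2-/- and 28.2 points in Tet1-/- cells. Foxa3 thus went the other way from the higher genes of its list.

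Of 16 cardiac genes, 3 had a higher CpG and none a lower one. Nkx2-5, a Gata4 partner in heart, had 27.9 points in TKO and 29.3 points in Tet2-/- cells, and Myocd, a smooth and heart muscle coactivator, 28.9 points in DKO and 27.8 points in Tet1-/- cells. Tbx5 had a higher CpG in 1 genotype. Of 20 blood and erythroid genes 1 had a higher CpG, the homeobox gene Meis1 with 66.7 points in TKO and 36.2 points in Tet2-/- cells, and none a lower one. Of 18 trophoblast genes 3 had a higher CpG (Tfap2c, Hand1 and Ascl2) and none a lower one. Of 13 T helper and inner ear partners of Gata3, 3 had a higher CpG (Tcf7, Rag1 and Pax2) and 1 a lower one (Il13). With 8.43% of all genes having a higher and 3.05% a lower CpG, lists this short would often hold no lower one.

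Gata2, the member listed in the most comparisons, was set beside other genes by the mean difference of the CpGs nearest to a start site of each gene, found by position in all 4 comparisons with WT, DKO included. Its means were 47.9 points in TKO (4 CpGs), 47.6 points in DKO, 45.9 points in Tet2-/- and 26.7 points in Tet1-/- cells, each of the last 3 from 1 CpG. A further 164 genes were higher in all 4. The nearest by Euclidean distance over the 4 means was Map3k1, a kinase gene, at 4.77 points, with 50.8, 47.5, 49.6 and 27.3 points in the same order. Gm853 followed at 8.3 points and Phlda1 at 8.48 points. This is a likeness of 4 values and not of function.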

How the data were processed

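RRBS libraries of 12 ESC clones were trimmed by the authors with Trim Galore 0.5 and aligned to mm9 with Bismark 0.19.1 (per the submitters' processing notes). The authors compared the clones of 2 genotypes per CpG with methylKit, treating clones as replicates, and HOMER gave each listed CpG a class and a nearest start site. The deposited values, treated as a score, are differences in methylation in percentage points, with a distance to the nearest start site in bp, for CpGs with at least 10 reads, q under 0.05 and at least 25 points. The lists have no column of a single clone, so the depth is unknown, no clone could be left out and no test was run.

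The members and the gene lists were chosen with earlier results of these data known. All 6 Gata genes were described with every listed CpG taken by the rule or within 50 kb. Genes of the other lists were named when CpGs within 2000 bp of a start site were listed in 2 or more comparisons with WT, and genes in small counts were named after their values were seen. A gene of the endoderm list that this rule names is not reported here. The 3 genes most like the member listed most often were those with the same direction in all 4 comparisons and the smallest Euclidean distance of their means. For DKO, annotation was out of row order and members were taken by position (within 50 kb). The entries naming a Gata gene were 3 there, and promoter and distance placed them at Gata2 88153033, Gata4 63866575 and Gata4 63860435. In the direct list reverse-strand cytosines were moved to the forward cytosine, and its direction was set by 140 of 148 shared CpGs. Sequences and positions came from NCBIM37 with GENCODE vM1, and 3 older symbols were matched through RefSeq synonyms. Counting was tested on simulated data. Python 3.11.15, pandas 2.3.3 and pysam 0.24.0 were used. Alternatives were a minimum of 30 or 40 points, other windows and merging of CpGs within 1000 bp.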

Additional observations from a re-analysis of the deposited data

Results flagged for a closer look

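The direct comparison listed 5 Gata CpGs as different between the Tet2-/- and Tet1-/- clones by the authors' methylKit comparison. Whether the gene lost or other differences between the clones gave these values was not tested. Methylation was higher in Tet2-/- than in Tet1-/- cells at the Gata3 intron 2 CpG at 9798283 (37.1 points), the Gata5 exon 1 CpG at 180068735 (47.4 points) and the Gata6 upstream CpG at 11049358 (38.1 points). It was lower in Tet2-/- at the Gata4 repeat CpG at 63907413 (-37.0 points) and at the distal CpG named for Gata3 at 9683268 (-30.5 points). The spread between the 2 Tet2-/- clones or the 3 Tet1-/- clones is not part of these values.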

How the results depend on the processing

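A minimum of 30 points left 6 Gata CpGs for Tet2-/- minus WT (5 higher, 1 lower) instead of 11, and 0 for Tet1-/- minus WT. A minimum of 40 points left 4 CpGs in TKO (3 higher, 1 lower), 5 in Tet2-/- (4 higher, 1 lower), 0 in Tet1-/- and 1, higher, for Tet2-/- minus Tet1-/-. Taking CpGs by position within 50 kb gave 2 for Tet1-/- (1 higher, 1 lower) and 10 for Tet2-/- minus Tet1-/- (9 higher, 1 lower). In DKO the gene names as deposited gave 3 CpGs, all higher, in rows of other chromosomes, and the positions from promoter and distance of those entries, an alternative chosen after seeing the data, also gave 3, all higher. The other 3 DKO CpGs, the lower ones near Gata1 and Gata3 and the higher one at Gata3 9807001, are therefore Gata values by distance only. Taking DKO CpGs by the nearest start site of any annotated gene gave 5, of which 5 were higher and 0 lower. Only 4 DKO CpGs within 50 kb were higher, so these include a CpG farther away that is not described here. Of 23 alternatives 13 kept the count within 1.5 times the reported one, 10 moved it and 0 turned the direction. With counts this small that says little. Where 0 CpGs were left in Tet1-/- there was no direction to turn, and Tet1-/- within 50 kb was a tie. No paired analysis was possible because the lists hold no value per clone, and for the same reason every value includes each clone. Depth per CpG is unknown, so the precision of a single difference is too.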
